A study of Rattus norvegicus with 25 samples.

Results

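The genes described are 4 subunits of the transcription factor AP-1, Fos (ENSRNOG00000008015), Fosb (ENSRNOG00000046667), Jun (ENSRNOG00000026293) and Junb (ENSRNOG00000042838), together with Atf3 (ENSRNOG00000003745). They were chosen as a gene family, by identifier, and are 5 of the 32623 genes in each deposited table and 5 of the 13908 genes that were expressed well enough to be tested. Fos and Atf3 also belong to the list of responding genes that the study drew from these same rats, so their direction at 20 min is not independent evidence.

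RNA was sequenced from the hippocampus of male Sprague Dawley rats in a study of the acute response to the forced swim test (FST), in which a rat is kept in water that it cannot climb out of. Control rats (n = 6) did not undergo the FST, rats of the 20-m group (n = 7) were killed 20 min after it, and rats of the 24-h group (n = 6) were killed 24 h after it. By the study's methods, both FST groups also had a longer pretest swim on the day before the test. Times are counted from the test, and the contrasts with controls hold both swims. No genotype or drug distinguished the groups. The 19 rats gave 25 libraries, because rats 10, 21 and 27 were each sequenced in 3 runs, which were summed here.

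AP-1 is a dimer of leucine zipper proteins. Fos proteins bind DNA only after pairing with a Jun protein, whereas Jun proteins can also pair with each other. Fos, Fosb and Junb are immediate early genes, transcribed within minutes of neuronal activation without new protein synthesis, and Fos mRNA is a common marker of recently active neurons in the hippocampus. Jun is the main partner of Fos and already has a basal level in brain, JunB is a weaker activator than c-Jun, and Atf3 encodes an ATF/CREB family protein, induced by many kinds of cellular stress, that can pair with Jun proteins.

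The promoter table at hand, from RefSeq on build GRCr8, held Junb and Fosb, so 2 of the 5 genes were matched. The 250 bases before the annotated start of Junb are shown because this is the member whose level lay above all controls in most rats of both FST groups. They lie at chr19:40080876-40081125 on the plus strand, 5′ to 3′, and capitals mark a match to the core of the cAMP response element (TGACG) and a match to the TATA box (TATAAA):
Junb: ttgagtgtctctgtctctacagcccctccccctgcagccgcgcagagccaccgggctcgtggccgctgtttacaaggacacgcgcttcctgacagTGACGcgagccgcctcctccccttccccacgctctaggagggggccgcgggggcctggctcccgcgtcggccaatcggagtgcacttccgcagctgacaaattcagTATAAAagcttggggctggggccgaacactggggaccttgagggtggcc

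Both strands were searched. The TGACG match lies 155 to 151 bases before the start of Junb and the TATAAA match lies 49 to 44 bases before it. Among 33469 promoter windows of 250 bases, 18.2% held TGACG and 12.9% held TATAAA. The full cAMP response element TGACGTCA (1.59% of windows), the AP-1 site TGACTCA (4.05%) and the CArG box bound by serum response factor (1.5%) had no match in the Junb window. The Fosb window, at chr1:88089185-88089434 on the minus strand, held 1 TATAAA match, on the opposite strand, and none of the other motifs. It lies inside the span that RefSeq gives for the gene and is not printed. A match is a string of letters and says nothing of binding.

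Reads could be assigned to these genes without ambiguity. In all 25 libraries the counts of the 5 genes were whole numbers with a posterior standard deviation of 0, so no read was shared with another gene. Summed counts per rat were 6217600 to 9032924 in controls, 6513105 to 7774070 in the 20-m group and 6529745 to 8202472 in the 24-h group. Libraries of 2 rats stood apart from the rest. Across genes, the median Spearman's rho with the other rats was 0.958 for rat 12 (20-m) and 0.964 for rat 13 (24-h), against 0.9745 to 0.9816 for the other 17 rats. The fold changes at 20 min and the results that rest on these rats are given with and without them. The tables give identifiers without symbols and none matched the gene table at hand, so markers of neurons, glia and vessels and further AP-1 relatives were not analysed. In such bulk tissue, fewer cells of a type and less RNA per cell cannot be told apart.

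Transcript levels differed widely within the family. In TPM, RSEM's measure of transcript abundance corrected for length, controls held 56.4 ± 2.76 (SD, n = 6) for Jun, 26.0 ± 4.40 for Junb, 5.34 ± 1.71 for Fos, 2.48 ± 0.524 for Fosb and 0.456 ± 0.110 for Atf3. The order Jun, Junb, Fos, Fosb, Atf3 was the same in 19 of 19 rats. Across control rats the TPM ranges of Fos (3.08 to 7.56) and Fosb (1.97 to 3.44) overlapped although Fos was the higher of the pair within each rat. All other neighbours in that order were separated in the controls.

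At 20 min the Fos subunits and Atf3 were higher than in controls, Junb was slightly higher and Jun was not. In the edgeR quasi-likelihood fit the change was 2.38-fold for Fos, 1.77-fold for Fosb, 1.34-fold for Junb and 3.23-fold for Atf3, while Jun was at 0.915 of the control level. None of the 5 met both thresholds of the fit across all genes (a fold change over 1.5 with an adjusted p under 0.05), which 6 of 13908 genes did (0.0431%). By p, Atf3 stood at place 7 and Fos at place 9 among all genes tested. At an unadjusted p under 0.05, 4 of the 5 members passed, all of them higher, against 7.55% of all genes in either direction and 3.91% upward. The median log2 fold change of the 5 was 0.83, against -0.0014 over all genes tested.

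**Figure D1:**
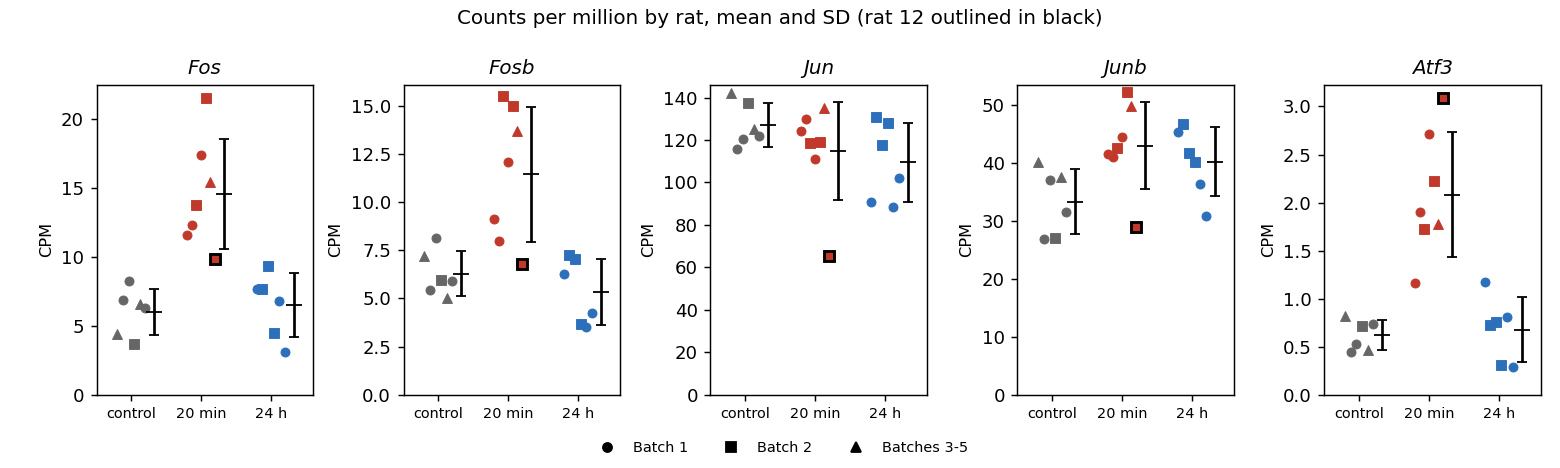
CPM (counts scaled to library size, linear axis from 0) of Fos, Fosb, Jun, Junb and Atf3 in each rat, by group on the horizontal axis. Each point is 1 rat, its shape gives the batch, bars give mean and SD, and rat 12 is outlined in black. All 7 rats at 20 min lie above all 6 controls for Fos and Atf3, whereas the Jun values of the 3 groups overlap.

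Fos, the inducible partner of Jun and the most used marker of neuronal activity, showed the clearest separation among the AP-1 subunits. Its level, as counts scaled to library size (CPM), ranged from 3.70 to 8.26 in controls (median 6.43) and from 9.87 to 21.5 CPM in the 20-m group (median 13.8). All 7 rats at 20 min lay above all 6 controls, a separation upward that 0.137% of all genes showed. The log2 fold change was 1.25 (SE 0.246, 95% interval 0.74 to 1.77), with an edgeR adjusted p of 0.0852.

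A 2-sided exact permutation test of mean log2 CPM gave p = 0.000583 over all rats for Fos, the smallest p it can give. With group labels exchanged only within batches, the exact p was 0.00417, again the smallest possible. Batch 1 (3 rats against 3) gave a difference in mean log2 CPM of 0.91, Batch 2 (3 against 1) gave 1.87, and Batches 3 to 5 (1 against 2) gave 1.47, so the sign was the same throughout. Without rats 12 and 13 the log2 fold change was 1.29 (edgeR adjusted p = 0.0502).

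Fosb, which encodes full-length FosB and the truncated ΔFosB that accumulates under repeated stimulation, moved in the same direction by less. It measured 5.004 to 8.13 CPM in controls (median 5.95) and 6.79 to 15.5 CPM at 20 min (median 12.1). Of the 7 rats at 20 min, 5 lay above all controls, and rats 2 and 12 fell within the control range. This gave a log2 fold change of 0.83 (SE 0.217, 95% interval 0.37 to 1.28), with an edgeR adjusted p of 0.339. Without rats 12 and 13 it was 0.89 (edgeR adjusted p = 0.0982).

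The exact permutation p for Fosb was 0.00583 over all rats and 0.00833 within batches. By batch, the difference in mean log2 CPM was 0.57 (Batch 1), 0.93 (Batch 2) and 1.15 (Batches 3 to 5). The gene has 2 annotated transcripts, and the length that RSEM weighted by their use lay between 3251 and 3633 bases, at the shorter in 1 library and at the longer in 5. The gene-level counts sum over both transcripts.

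Jun gave no detectable difference at 20 min. It measured 116 to 142 CPM in controls (median 123) and 65.4 to 135 CPM at 20 min (median 119). No rat at 20 min exceeded the highest control, 2 lay below the lowest one, and rat 12 lay far under the others of its group. Its log2 fold change was -0.13 (95% interval -0.41 to 0.15, edgeR adjusted p = 0.885), and -0.04 without rats 12 and 13. The interval leaves room for a change of either sign up to these bounds. Jun rests on 424 to 1046 counts a rat in these groups, and its coefficient of variation at 20 min was 20.2%, against 3.50% from counting alone.

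Junb measured 26.96 to 40.2 CPM in controls (median 34.3) and 29.0 to 52.3 CPM at 20 min (median 42.7). Of the rats at 20 min, 6 of 7 lay above all controls and rat 12 lay within their range. The log2 fold change was 0.43 (SE 0.126, 95% interval 0.16 to 0.69), with an edgeR adjusted p of 0.456 and a fold change below the threshold of 1.5. Without rats 12 and 13 it was 0.47 (edgeR adjusted p = 0.100). The exact permutation p was 0.0332 over all rats and 0.00833 within batches, with a difference in mean log2 CPM of 0.42 (Batch 1), 0.56 (Batch 2) and 0.36 (Batches 3 to 5).

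Atf3 had the fewest reads of the 5 and, in the edgeR fit, the largest fold change. On log2(TPM + 0.5), which pulls low values together, its difference was 0.94, below the 1.15 of Fos. It rested on 3 to 6 counts in each control and 8 to 20 counts in each rat at 20 min, which correspond to 0.442 to 0.819 CPM (median 0.622) and 1.16 to 3.08 CPM (median 1.90). All 7 rats at 20 min lay above all controls, and rat 12, lowest of its group for the 4 AP-1 subunits, was the highest for Atf3. Its log2 fold change was 1.69 (SE 0.323, 95% interval 1.02 to 2.37), with an edgeR adjusted p of 0.0852, and 1.604 without rats 12 and 13 (edgeR adjusted p = 0.0546).

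For Atf3 the exact permutation p was 0.00117 over all rats and 0.00417 within batches. It differed in mean log2 CPM by 1.33 in Batch 1, by 1.37 in Batch 2 and by 1.18 in Batches 3 to 5. Counting alone at these depths gives a coefficient of variation of 47.1% in controls, above the 25.5% observed between the control rats, so the size of the fold is known only within its interval. Of its 2 annotated transcripts, RSEM assigned the reads to the 1 of 1888 bases alone in 17 of the 24 libraries that had any.

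At 24 h none of the 5 met the thresholds, and no gene in the table did (0.0% of 13908, with 441 genes or 3.17% at an unadjusted p under 0.05). DESeq2 and limma with ComBat also called 0 genes. This contrast uses the same control rats as the one at 20 min. The median log2 fold change of the 5 was 0.09, against -0.0014 over all genes. In none of the 5 did the rats at 24 h separate fully from the controls, as 0.122% of all genes did in either direction.

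Fos at 24 h measured 3.12 to 9.33 CPM (median 7.23), over the whole control range. Its log2 fold change was 0.09 (95% interval -0.49 to 0.68). Fosb measured 3.53 to 7.25 CPM (median 5.26), with a log2 fold change of -0.25 (-0.77 to 0.26), and 3 of the 6 rats lay below all controls. Atf3 measured 0.284 to 1.17 CPM (median 0.741) on 2 to 9 counts, with a log2 fold change of 0.11 (-0.71 to 0.92).

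For these 3 genes the intervals include 0 and leave room for a change in either direction. Exact permutation p-values over all rats were 0.792 for Fos, 0.240 for Fosb and 0.870 for Atf3. The sign for Fos differed between batches, with a difference of -0.35 in Batch 1 and 0.84 in Batch 2, where there was 1 control.

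Junb and Jun each had several rats outside the control range at 24 h, Junb above it and Jun below it. Junb measured 30.8 to 46.9 CPM (median 41.0), and 4 of 6 rats lay above all controls. The log2 fold change of 0.38 (SE 0.137, 95% interval 0.09 to 0.66) had an unadjusted edgeR p of 0.0134 and an adjusted p of 1.00, so it did not pass. In this fit over all 19 rats, Junb was thus the 1 member of 5 with an unadjusted p under 0.05, against 1.84% of all genes upward. The exact permutation p was 0.0779 over all rats and 0.0750 within batches. The difference in mean log2 CPM was 0.23 in Batch 1 and 0.66 in Batch 2, where there was 1 control. Without rats 12 and 13 the log2 fold change was 0.27 (0.04 to 0.51, unadjusted edgeR p = 0.0261). It was 0.27 without a batch term (-0.01 to 0.55, unadjusted edgeR p = 0.0568) and 0.30 without control rat 25 (-0.02 to 0.62, unadjusted edgeR p = 0.0643).

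Jun at 24 h measured 88.3 to 131 CPM (median 110), and 3 of 6 rats lay below all controls. The log2 fold change was -0.18 (95% interval -0.49 to 0.13). Without rats 12 and 13 it was -0.19 (-0.36 to -0.02, unadjusted edgeR p = 0.0337). Fitted on the 24-h and control groups alone, it was -0.27 (-0.42 to -0.13, unadjusted edgeR p = 0.00128, adjusted p = 0.866). Neither setting met the thresholds. The exact permutation p was 0.0801 over all rats and 0.0250 within batches, where the difference in mean log2 CPM was -0.35 in Batch 1 and -0.13 in Batch 2.

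**Figure D2:**
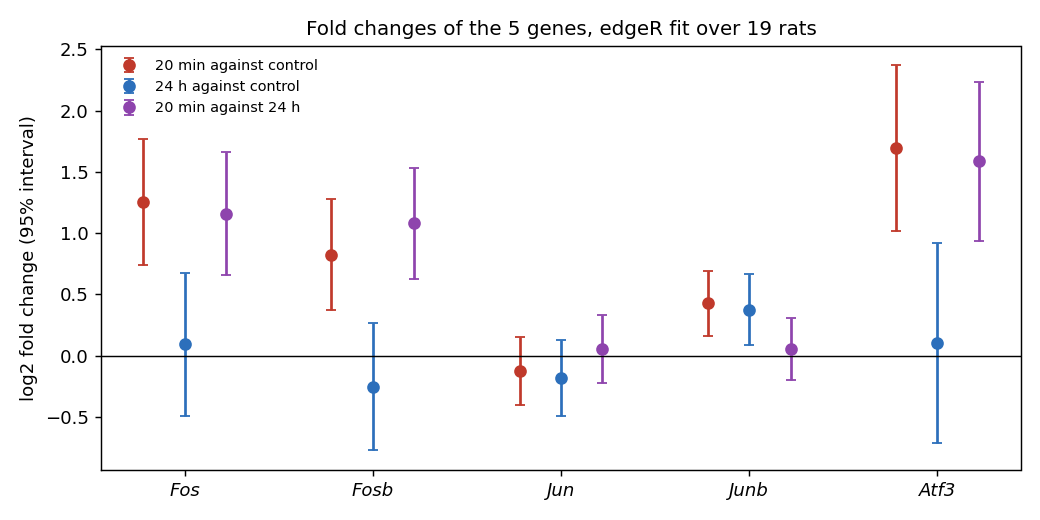
Log2 fold changes of the 5 genes (vertical axis) with 95% intervals from the edgeR fit over 19 rats, for 20 min against control, 24 h against control and 20 min against 24 h. Fos, Fosb and Atf3 lie above 0 in both contrasts that involve the 20-m group and include 0 at 24 h, Junb lies above 0 against controls at both times, and Jun includes 0 throughout.

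Set directly against the 24-h group, the rats at 20 min were higher for Fos, Fosb and Atf3. No control rat is among the 13 rats set against each other here, although controls entered the fit and its estimates of batch and spread. The log2 difference was 1.16 for Fos (SE 0.238, edgeR adjusted p = 0.0801), 1.08 for Fosb (SE 0.217, edgeR adjusted p = 0.0787) and 1.59 for Atf3 (SE 0.310, edgeR adjusted p = 0.0778). None of the 5 met the thresholds, which 5 of 13908 genes did (0.036%), and 3 of the 5 had an unadjusted p under 0.05, all higher (7.2% of all genes upward and 13.8% in either direction). Fitted on these 2 groups alone, the log2 differences were 1.14, 1.04 and 1.61, with edgeR adjusted p-values of 0.317 for Fos, 0.352 for Fosb and 0.318 for Atf3.

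The 7 rats at 20 min lay above all 6 rats at 24 h for Fos, as for 0.288% of all genes, and 6 of 7 did for Fosb and for Atf3. Exact permutation p-values over all rats were 0.000583 for Fos, 0.00350 for Fosb and 0.00175 for Atf3, and 0.00500, 0.0150 and 0.0100 within batches. Without rats 12 and 13, Fosb met both thresholds at a log2 difference of 1.32 (edgeR adjusted p = 0.00938), while Fos (1.33) and Atf3 (1.72) each had an adjusted p of 0.0707.

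In the fit over all rats, Jun and Junb hardly differed between the 2 FST groups. The log2 difference was 0.05 for Jun (95% interval -0.22 to 0.33) and 0.05 for Junb (-0.20 to 0.30). Without rats 12 and 13 it was 0.15 for Jun (-0.02 to 0.31) and 0.20 for Junb (-0.01 to 0.42). Without rat 12 alone it was 0.18 for Jun (0.02 to 0.34, edgeR adjusted p = 0.363) and 0.13 for Junb (-0.08 to 0.35). Exact permutation p-values were 0.794 for Jun and 0.537 for Junb. For Jun the batches had opposite signs, 0.38 in Batch 1 and -0.36 in Batch 2, and rat 12 belongs to Batch 2.

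Whether a call was made depended on the method for 3 of the genes. At 20 min against control DESeq2 called Fos (adjusted p = 0.00150) and gave no adjusted p for Atf3, and limma after ComBat, the sequence of tools the study names, run here with the groups given to ComBat as terms to keep, called Fos (adjusted p = 0.0104) and Atf3 (adjusted p = 0.00788). At 20 min against 24 h DESeq2 called Fos and Fosb, and limma after ComBat called Fos, Fosb and Atf3. Limma with voom and the batch in the model called none of the 5 in any contrast. The fold changes moved little between these methods, and Jun and Junb were called by none of them.

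The members did not move in proportion, which was tested on their ratio within each rat. In such a ratio scaling between libraries cancels, except through the constant added to each count, which weighs most on the low counts of Atf3. Of the 10 pairs, 7 differed in their log2 ratio between 20 min and control at an adjusted p under 0.05 (exact permutation within batches, Benjamini-Hochberg over the 10 pairs). The pairs share genes, so they are not independent of each other. Pairs with Fos or Atf3 carry the study's choice of these genes on the same rats, so their direction is not independent evidence. No share over pairs of other genes was computed. Fos relative to Jun was at -4.38 ± 0.516 in controls and -2.96 ± 0.368 at 20 min, a difference of 1.42 (adjusted exact p = 0.0104), with 7 of 7 rats above all controls. Fosb relative to Jun differed by 0.97 (adjusted exact p = 0.0167), a call lost without control rat 25 (0.94, adjusted exact p = 0.0556).

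Among the partners themselves the balance also shifted. Jun relative to Junb was at 1.93 ± 0.244 in controls and 1.40 ± 0.187 at 20 min, a difference of -0.53 (adjusted exact p = 0.0104), and all 7 rats lay below all controls. At 24 h the same ratio stood at 1.43 ± 0.267, and it did not differ detectably from 20 min (difference -0.04, adjusted exact p = 0.785). The test of this ratio between 24 h and control was not among those run.

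Fos also changed relative to Junb, and its ratio to Fosb was less stable. Fos relative to Junb differed by 0.88 between 20 min and control (adjusted exact p = 0.0104, 7 of 7 rats above all controls) and by 1.08 between 20 min and 24 h (adjusted exact p = 0.0125). Fos relative to Fosb differed by 0.44 between 20 min and control (adjusted exact p = 0.0476), but by 0.42 with an adjusted exact p of 0.0833 without rats 12 and 13, and leaving out 1 rat at a time ended the call in 9 of 13 cases. Between 20 min and 24 h the Fos to Fosb ratio differed by 0.11 (adjusted exact p = 0.650), with no rat at 20 min above all rats at 24 h. Fosb relative to Junb did not pass against control (0.44, adjusted exact p = 0.0677) and passed against 24 h (0.97, adjusted exact p = 0.0125).

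Atf3 differed more than Jun (Jun relative to Atf3 by -1.54, adjusted exact p = 0.0104) and Junb (by -1.01, adjusted exact p = 0.0278) between 20 min and control. The call against Junb was lost without rat 6, 10 or 24 (adjusted exact p = 0.0556 to 0.0714) and with a prior count of 5 (-0.70, adjusted exact p = 0.0595). Against Fos it gave a difference of -0.13 (adjusted exact p = 0.946) and against Fosb -0.57 (adjusted exact p = 0.167). The ratio to Fos changed sign when the constant added to each count was raised, because of the few Atf3 counts.

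**Figure D3:**
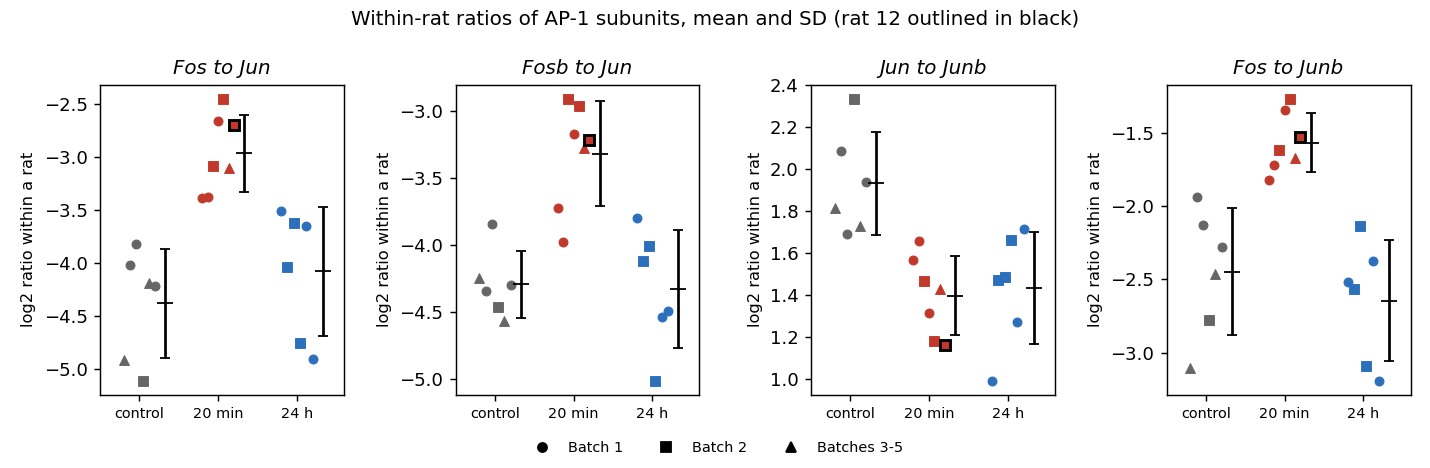
Log2 ratios within each rat (vertical axis) of Fos to Jun, Fosb to Jun, Jun to Junb and Fos to Junb, by group, with 1 point for each rat, its shape giving the batch, bars giving mean and SD, and rat 12 outlined in black. The Fos to Jun and Fos to Junb ratios of all 7 rats at 20 min lie above all other rats, and the Jun to Junb ratio is lower than in controls in all 7.

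Expressed per length, these shifts changed the make-up of these 4 AP-1 subunit transcripts. Of the TPM summed over the 4 subunits, Jun held 62.7% ± 4.08 (SD, n = 6) in controls, 50.0% ± 4.14 (n = 7) at 20 min and 55.4% ± 5.27 (n = 6) at 24 h. Fos held 5.90% ± 1.76, 12.6% ± 2.25 and 6.47% ± 2.07 in the same order. The lowest Fos share at 20 min (10.04%) exceeded the highest in either other group (7.79% in controls and 8.53% at 24 h).

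Junb held 28.7% ± 3.10 in controls, 33.04% ± 1.69 at 20 min and 35.7% ± 3.40 at 24 h, and Fosb held 2.74% ± 0.463, 4.43% ± 0.927 and 2.40% ± 0.605. Among these 4 transcripts, Jun thus remained the most abundant in every rat, and Fos and Fosb stayed a minority beside Jun and Junb at 20 min. Other members of the Fos and Jun families were not analysed. The summed TPM was 90.2 ± 6.67 in controls, 99.1 ± 23.9 at 20 min and 87.8 ± 12.8 at 24 h. These sums overlapped between the groups, with the lowest value in rat 12 (54.3) and the highest also at 20 min (126). In rat 12 Junb held the highest share of the 7 rats (35.9%), and its shares of the other 3 subunits lay within the range of the group.

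**Figure D4:**
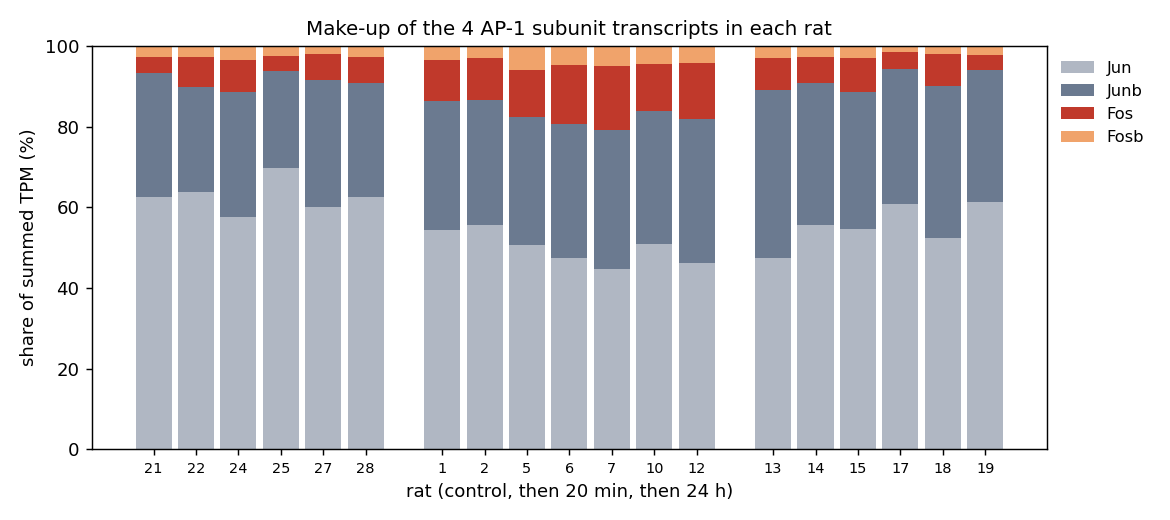
Share in percent (vertical axis) of Jun, Junb, Fos and Fosb in their summed TPM, with 1 stacked bar for each rat, ordered as control, 20 min and 24 h. The Fos segment is largest in the 7 rats at 20 min, between 10.04% and 15.96%, and the Jun segment is the largest of the 4 in every rat.

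Beyond group and batch, the level of 1 member followed that of another in few cases. Over the 17 rats that shared group and batch with another rat, with group and batch means removed, 1 of 10 pairs passed, Fosb with Junb (Pearson's r = 0.793, adjusted exact permutation p = 0.0328; Spearman's rho = 0.848, adjusted exact permutation p = 0.0199). Without rats 12 and 17, the farthest from the median, r was 0.678 (exact permutation p = 0.0434). Without rats 12 and 13 it was 0.505 (adjusted exact permutation p = 0.159). Leaving out 1 rat at a time gave r from 0.64 to 0.84 and ended the call in 10 of 17 cases, so the call depended on single rats.

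For Fos with Junb r was 0.717 (adjusted exact permutation p = 0.0756), with rho = 0.600 (adjusted exact permutation p = 0.269). For Fos with Jun r was 0.126 (adjusted exact permutation p = 0.779). The positive r of Jun with Junb (0.605) and of Jun with Fosb (0.546) turned to -0.17 without rats 7 and 12 and -0.04 without rats 12 and 17. Among the 13891 genes ranked by likeness to Fosb over these rats, Junb came at place 12 and Jun at place 1009. The gene most like Fos was ENSRNOG00000020009 (r = 0.906), with Junb at place 48. Ranked by likeness to Junb, Fosb came only at place 189 and Fos at place 597. These ranks are descriptions of 17 rats.

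Repeated runs of the same rat spread more in some rats than in others. Jun lay between 134 and 139 CPM over the 3 runs of rat 10, between 130 and 151 CPM in rat 21 and between 109 and 136 CPM in rat 27, the last about as wide as the range between control rats. Fos lay between 13.4 and 16.3 CPM in the runs of rat 10 and between 3.88 and 7.34 CPM in those of control rats 21 and 27, which did not overlap. Fosb lay between 10.9 and 15.3 CPM in rat 10 and reached 9.42 CPM in 1 run of rat 21. For Atf3 the 3 runs of control rat 27 spread from 0 to 1.04 CPM on 0 to 2 counts, so its value in a single run carries little weight.

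Beside the AP-1 genes stood 8 other immediate early genes that the study had selected on these rats, which makes their direction no independent evidence. Ier2, also on the study's list, was not among the 8. At 20 min all 8 were higher than in controls, and 5 of the 8 met both thresholds, which 6 of 13908 genes did (0.0431%). Among those 5 were Ccn1, a secreted matrix protein (log2 fold change 3.38, edgeR adjusted p = 7.92e-05), Dusp1, a phosphatase of MAP kinases (1.69, edgeR adjusted p = 7.92e-05) and Sik1, a salt-inducible kinase (1.14, edgeR adjusted p = 0.0253). Atf3, at 1.69, had nearly the same fold as Dusp1 with a standard error of 0.323 against 0.180. Fos, at 1.25, lay just above Sik1, with 0.246 against 0.192. The median over the 8 was 1.13 at 20 min, against 0.83 over the 5 AP-1 and Atf3 genes, and 0.18 at 24 h, against 0.09.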

How the data were processed

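Groups, rats and batches came from the sample labels. The 19 rats are separate animals. The study's text gives both 6 and 7 rats at 20 min, and the 7 labelled rats were used. The members and lists were chosen with earlier results of these data known. The authors used STAR for alignment and RSEM for quantification, and deposited expected counts and TPM per gene, neither corrected for batch. The deposited gene length and posterior standard deviation served only to check assignment. For both tools the version is not given in the sources at hand.

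Expected counts were summed over the runs of a rat and rounded. Genes passing edgeR's filterByExpr (minimum count 10, minimum total 15), 13908 in all, were tested with edgeR's quasi-likelihood test (TMM, terms for group and batch, 19 rats, 14 residual degrees of freedom). Batches 3 to 5 were 1 level, as they hold runs of the same 3 rats. Calls needed a fold change over 1.5 together with a Benjamini-Hochberg adjusted p under 0.05. CPM are TMM-scaled, and log2 CPM used a prior count of 2. TPM of repeated runs were combined per rat. Exact permutation tests were 2-sided, and those within batches first subtracted batch means. Named genes were the 5 members, 8 of the immediate early genes listed by the study and the nearest genes by correlation. The tests were checked on simulated data. The deposited tables hold no comparison by the authors. Tools were R 4.3.3, edgeR 4.0.16, limma 3.58.1, DESeq2 1.42.0, sva 3.50.0, Python 3.11.15, numpy 2.4.6, pandas 2.3.3 and scipy 1.17.1. Alternatives covered scaling, filters, tools, batches, runs and single rats.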

Additional observations from a re-analysis of the deposited data

Results flagged for a closer look

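Jun in rat 12 of the 20-m group measured 65.4 CPM, far below the other 6 rats of the group, which lay between 111 and 135 CPM. The gap to the next rat was 0.657 of the group's range, against Dixon's critical value of 0.568 for 7 samples. Chance flags about 1 in 20 groups, and 15 groups of rats were looked at. The same library correlated least with the others across genes and gave the lowest Fos, Fosb and Junb and the highest Atf3 of its group, and the part of the library as a whole in these values was not tested.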

How the results depend on the processing

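Against control at 20 min, the number of genes called (6) was 10 without a filter on low counts, 15 with DESeq2, 15 with limma after ComBat, 0 in Batch 1 alone and 20 over the 25 libraries with the run of a rat as a replicate block. Fos was called at a log2 fold change of 1.26 without the filter, 1.26 with DESeq2, 1.25 after ComBat, 1.27 without a batch term and 1.22 with the block, and Atf3 at 1.605 after ComBat, 1.73 without a batch term and 1.58 with the block, while on log2(TPM + 0.5) it was at 0.94 and not called. Other settings did not call Fos, which was at 1.18 in Batches 1 and 2 (edgeR adjusted p = 0.553) and 0.95 in Batch 1 alone. With the first run only of rats 10, 21 and 27 it was at 1.22 (edgeR adjusted p = 0.205), and on log2(TPM + 0.5) at 1.15 (limma adjusted p = 0.245). The block is the rat, fitted with limma and terms for the 5 batches. The shared run numbers mark Batches 3 to 5, which hold runs of the same 3 rats, so they tie libraries by batch and do not pair different rats. Jun was at 0.028 in Batch 1 alone. At 24 h against control no setting called a gene, and signs turned for Fos (-0.26 in Batch 1 alone, -0.040 without rats 12 and 13) and Atf3 (-0.022 with voom, -0.026 with the block, -0.061 on TPM, -0.11 without rats 12 and 13). At 20 min against 24 h the genes called (5) were 9 without the filter, 30 with DESeq2, 48 after ComBat, 0 in Batch 1 alone, 19 with the block and 8 without rats 12 and 13. In the same order as far as called, Fos was at 1.16, 1.17, 1.20 and 1.18 (block), Fosb at 1.08, 1.08, 1.08, 1.05 (block) and 1.32 (without rats 12 and 13), and Atf3 at 1.59 after ComBat, 1.61 with the block and 1.00 on TPM. On TPM, Jun was at -0.030 and Junb at -0.013. The cause was not tested.

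Leaving out 1 rat at a time, with the same genes tested, gave 4 to 8 genes called at 20 min against control, 0 at 24 h and 4 to 9 between the FST groups (9 without rat 2). Log2 fold changes at 20 min against control ran from 1.07 to 1.38 for Fos (called without rat 19), 0.73 to 0.96 for Fosb, -0.17 to -0.04 for Jun, 0.36 to 0.50 for Junb and 1.58 to 1.82 for Atf3 (called without rat 1). At 24 h they ran from -0.11 to 0.28 for Fos, -0.36 to -0.11 for Fosb, -0.22 to -0.11 for Jun, 0.30 to 0.46 for Junb and -0.18 to 0.27 for Atf3. Between the FST groups they ran from 1.00 to 1.30 for Fos, 0.98 to 1.20 for Fosb (called without rat 12), -0.0038 to 0.18 for Jun, -0.026 to 0.13 for Junb and 1.44 to 1.85 for Atf3 (called without rat 13).

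The pairs whose ratio differed numbered 5 to 7 against control and 5 to 6 between FST groups without 1 rat. The Fos to Atf3 ratio turned to 0.13 (control) and 0.092 (24 h) with a prior count of 5, and to 0.051 against control without rats 12 and 13. Correlated pairs numbered 0 to 2 without 1 rat, and 0 without the 2 farthest rats or without rats 12 and 13, where r was -0.72 for Fos with Jun, -0.026 for Fosb with Jun and -0.056 for Jun with Junb. Without the 2 farthest rats r was -0.036 for Fosb with Jun and -0.17 for Jun with Junb. Without 1 rat, the log2 ratio of Fos to Atf3 ran from -0.28 to 0.051 against control and from -0.25 to 0.0057 against 24 h, where Fos to Fosb ran from -0.024 to 0.24 and Jun to Junb from -0.12 to 0.020. Without 1 rat, r ran from -0.72 to 0.31 for Fos with Jun, -0.11 to 0.66 for Fosb with Jun and -0.16 to 0.76 for Jun with Junb. The settings without rats 12 and 13 were chosen after seeing the data. Atf3 was not tested in Batch 1 alone, where it missed the filter.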
